A study of Arabidopsis thaliana with 70 samples.

Results

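Transcripts of 10 Arabidopsis thaliana genes for EARLI1-type lipid transfer hybrid proteins were followed through 38 RNA libraries of a study of the immune response to flg22. The 10 genes, of 33597 in the deposited table, were taken by identifier: AZI1 (AT4G12470), EARLI1 (AT4G12480), AT4G12490, AT4G12500, AT4G12510, AT4G12520, AIR1 (AT4G12550), AT4G22470, AT5G46890 and AT5G46900. They had been selected on their measured responses to flg22, which ran in opposite directions. The flg22 differences below are therefore descriptions with no test, while the differences between genotypes were tested. flg22 is a peptide of bacterial flagellin that plants sense at the cell surface through the receptor kinase FLS2.

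Plants were rdd, a ros1 dml2 dml3 triple mutant that lacks 3 DNA demethylases, and wild type (WT). Seedlings grown for 10 days on agar medium with sucrose were collected after 0, 1 and 3 h in 100 nM flg22, and each genotype and time has 3 libraries. Leaves came from soil-grown plants of 4 weeks, inoculated by hand 24 h earlier with 100 nM flg22 or water, and each genotype and treatment has 3 libraries. In a further set, leaves that had received flg22 or water 24 h before were given the bacterium Pst DC3000 hrcC for 1 h, with 2 libraries per genotype and treatment; this strain cannot inject effector proteins into plant cells. No seedlings without flg22 were sampled at 1 or 3 h, so flg22 and the time of sampling cannot be told apart in seedlings. The labels do not say which plants went into which library, so p-values reflect only how far these samples scatter, which may be technical.

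Proteins of this kind have a signal peptide, a proline-rich stretch and a cysteine-rich domain of the lipid transfer type, and act at membranes and the cell wall. AZI1 is required for the priming of systemic defence by azelaic acid, a mobile signal formed from fatty acids, and EARLI1 takes part in the same process. EARLI1 was first described as a gene induced by aluminium and is also linked to cold and vernalization. AIR1 was described as a gene induced by auxin in roots that form lateral roots. The remaining 7 identifiers carry no gene name in the RefSeq annotation.

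Values were read as FPKM, fragments scaled for gene length and library total, and summed to between 904625 and 1231239 per library. The number of reads behind a value is unknown, so no counting error is given, and a value of 0 means only that a gene is listed at 0. Differences are given as log2 of FPKM + 1 ± SE of a fit across all genes, and the added 1 makes differences of weakly expressed genes smaller. Replicate 2 of rdd seedlings at 3 h stood apart with 2.85% of its FPKM in organelle genes, the fewest genes above 0 (18555) and a relative depth of 0.21 against 0.66 to 1.47 elsewhere. In leaves without hrcC, replicate 3 of all 4 groups had 0.073% to 0.098% of its FPKM in organelle genes, against 3.03% to 5.54% in replicates 1 and 2. Results that rest on these libraries are given with and without them. Of the mutated genes, DML3 stood at 0.34 ± 0.08 FPKM in rdd leaves with flg22 and 2.83 ± 0.67 in WT leaves with flg22 (SD, n = 3 each). In seedling groups DML3 averaged at most 0.05 FPKM, so it does not check the labels of seedlings. DML2 averaged 5.05 FPKM in rdd and 5.43 FPKM in WT leaves with water, and 6.88 and 9.40 FPKM with flg22. Its mean was higher in rdd than in WT in seedlings at 0 h and after water and hrcC, and lower in the other conditions. ROS1 was not called lower in rdd in any of the 7 conditions and does not check the labels. The mean of ROS1 was lower in rdd than in WT in seedlings at 1 and 3 h and higher in the other conditions. After water and hrcC it averaged 23.8 FPKM in rdd and 10.2 FPKM in WT, and after flg22 and hrcC 16.9 and 7.69 FPKM (n = 2 each).

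The 10 genes fell into 2 sets of 5 by where they were measured. AZI1, EARLI1, AT4G12490, AT4G12500 and AT4G22470 were above 0 in each of the 38 libraries and are called the leaf-expressed members here. AT4G12510, AT4G12520, AIR1, AT5G46890 and AT5G46900 were above 3 FPKM in seedlings, apart from AT5G46900 in 1 library at 1.97 FPKM, but 90 of their 100 values in leaves were 0 and the highest was 1.01 FPKM. These are called the seedling-only members. The sets also differ in the direction of their levels with flg22, which is what the genes were picked for. 12 root marker genes, among them the root hair gene COBL9, were summed as a check of the tissue. They reached 831 to 2073 FPKM in seedling libraries and 0.57 to 14.6 FPKM in leaf libraries, where NRT2.1, a nitrate transporter gene, was the 1 marker with a group mean above 1 FPKM. RNA of root markers was thus present in all seedling libraries and near 0 in leaf libraries. In such bulk samples, fewer cells of a type and less RNA per cell cannot be told apart.

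**Figure D1:**
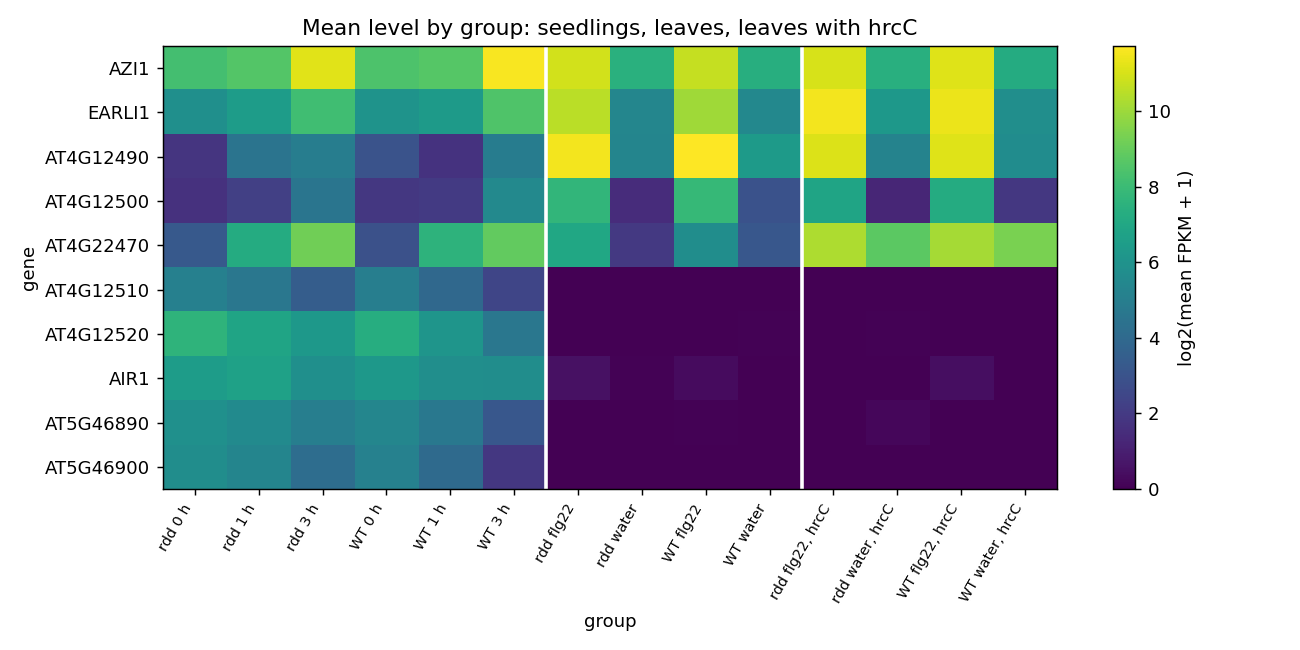
Mean level of the 10 genes in the 14 groups, as log2 of mean FPKM + 1, with rdd groups beside WT groups. The 5 leaf-expressed members are at their highest with flg22 or hrcC, and the 5 seedling-only members are near 0 in all 8 leaf groups.

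Among leaf-expressed members in seedlings, AZI1 was the most abundant at every time. It stood at 191, 511 and 193 FPKM in rdd seedlings and 343, 345 and 359.5 FPKM in WT seedlings at 0 h. At 1 h the values were 249.7, 558 and 359 FPKM in rdd and 615, 286 and 267 FPKM in WT. At 3 h they were 1984, 2376 and 2754.5 FPKM in rdd and 3432, 3464 and 2496 FPKM in WT. The 0 h and 1 h libraries overlapped in both genotypes, and every 3 h library was above every earlier one. By its mean at 3 h, AZI1 ranked 38th of all 33597 genes in rdd seedlings and 18th in WT seedlings. Its 3 h level was 3.14 ± 0.36 log2 units above 0 h in rdd and 3.15 ± 0.36 in WT.

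EARLI1 followed the same course at a lower level. It averaged 281 ± 149 FPKM in rdd and 358 ± 107 FPKM in WT at 3 h (SD, n = 3 each), differences from 0 h of 2.55 ± 0.51 and 2.40 ± 0.51 log2 units. The ratio of AZI1 to EARLI1 had a median of 6.03 over the 18 seedling libraries, with a range of 2.27 to 14.8. AT4G12500 stood at 0.90 to 4.05 FPKM over both genotypes at 0 h and reached 5.92, 21.4 and 40.2 FPKM in rdd and 40.2, 62.5 and 31.2 FPKM in WT at 3 h. AT4G12490 was uneven, since single libraries at 0 h and 1 h (19.6 FPKM in WT at 0 h, 60.2 FPKM in rdd at 1 h) were as high as those at 3 h (7.53 to 45.4 FPKM), and its 3 h and 0 h libraries overlapped in WT.

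AT4G22470 was the one leaf-expressed member with every 1 h library above every 0 h library in both genotypes. In each genotype taken alone, this was seen for 15.3% of all genes in rdd and 15.2% in WT. Its 0 h values were 4.29, 19.9 and 2.22 FPKM in rdd and 4.98, 8.53 and 5.82 FPKM in WT. At 1 h it stood at 114, 172 and 156 FPKM in rdd and 266, 145 and 155 FPKM in WT. At 3 h it stood at 474, 672 and 606 FPKM in rdd and 431, 531 and 488 FPKM in WT. The 3 times did not overlap in either genotype. The mean at 3 h was 75.0 times that at 0 h in WT, and on the log2 scale the 3 h difference was 6.35 ± 0.46 in rdd and 6.05 ± 0.46 in WT.

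**Figure D2:**
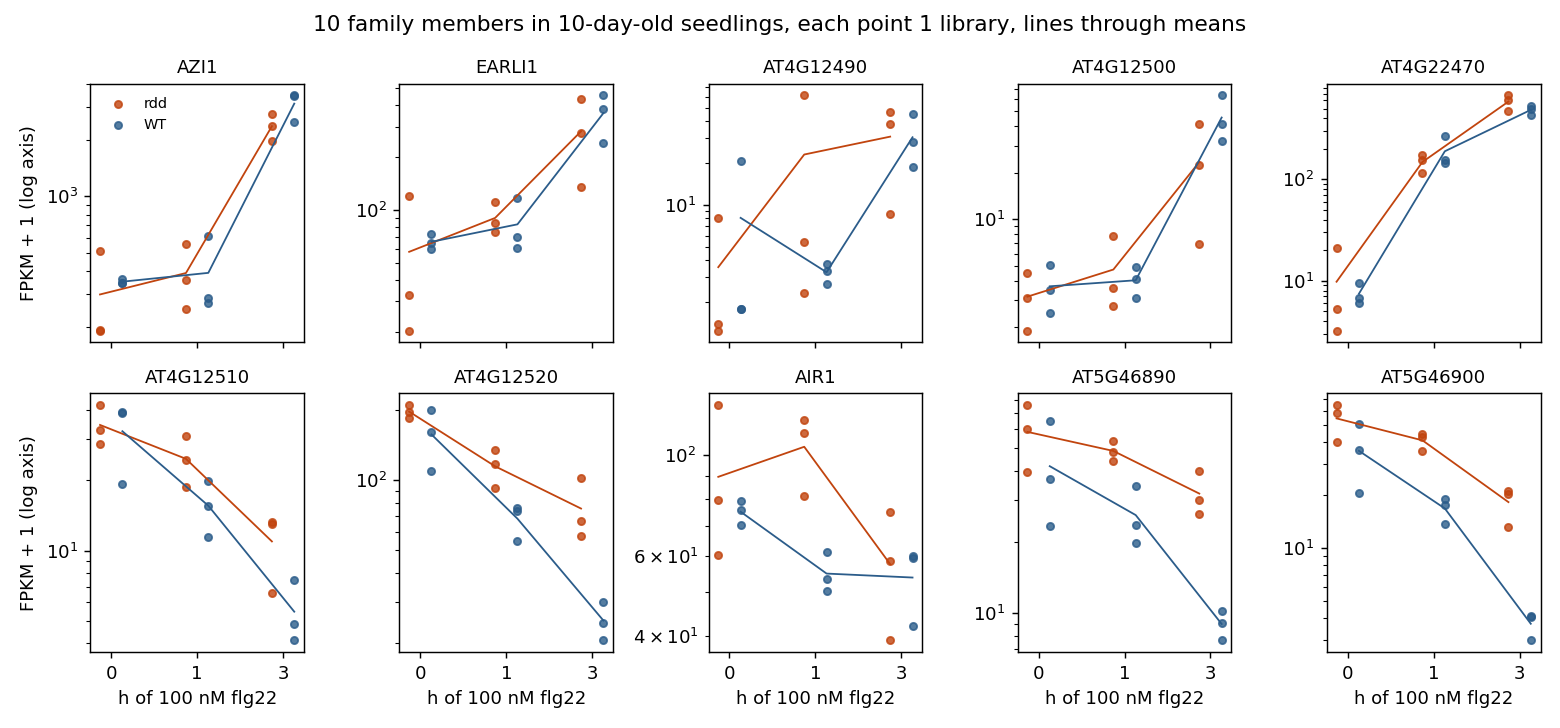
FPKM of each of the 10 genes in every seedling library at 0, 1 and 3 h of flg22, rdd at the left and WT at the right of each time, on log axes that differ between panels; points are libraries. AZI1 and AT4G22470 have every 3 h library above every earlier one, the highest AT4G12490 library is 1 of rdd at 1 h (60.2 FPKM), and AT4G12520, AT5G46890 and AT5G46900 at 3 h are higher in all rdd libraries than in all WT libraries.

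The seedling-only members ran the other way. AT4G12520, the most abundant of them, stood at 184, 196 and 210 FPKM at 0 h, 116, 134 and 91.6 FPKM at 1 h and 101, 65.8 and 56.9 FPKM at 3 h in rdd. In WT it stood at 199, 109 and 161 FPKM at 0 h, 72.9, 75.2 and 54.1 FPKM at 1 h and 19.5, 28.9 and 23.4 FPKM at 3 h. In WT the 3 times did not overlap; in rdd the 1 h and 3 h libraries did. The 3 h difference from 0 h was -1.43 ± 0.23 log2 units in rdd and -2.64 ± 0.23 in WT.

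AT5G46900 stood at 57.4, 38.9 and 63.5 FPKM at 0 h, 43.3, 41.3 and 34.6 FPKM at 1 h and 19.97, 12.2 and 19.3 FPKM at 3 h in rdd. In WT it stood at 49.2, 19.3 and 35.0 FPKM at 0 h, 16.5, 17.9 and 12.7 FPKM at 1 h and 1.97, 3.07 and 3.05 FPKM at 3 h. At 3 h in WT this was the lowest mean of the 10 genes. The mean at 0 h was thus 12.8 times that at 3 h in WT, and the log2 differences were -1.58 ± 0.28 in rdd and -3.18 ± 0.28 in WT. Its neighbour AT5G46890 had differences of -0.84 ± 0.31 in rdd, where the libraries of both times overlapped, and -2.11 ± 0.31 in WT. For AT4G12510 they were -1.71 ± 0.33 in rdd and -2.54 ± 0.33 in WT. AIR1 departed from the rest of its set, with -0.62 ± 0.25 in rdd and -0.50 ± 0.25 in WT, both under 2-fold.

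Counted over the 10 members, 5 members were at least 2-fold higher and 3 at least 2-fold lower at 3 h in rdd, where 4.24% and 2.77% of all 18886 genes tested were. In WT 5 were higher and 4 lower, with 6.29% and 1.63% of all genes. At 1 h 3 members were at least 2-fold higher and 0 lower in rdd (6.54% and 1.58% of all genes), and 1 was higher and 3 were lower in WT (6.2% and 2.02%). These contrasts chose the members, so nothing is read from the counts. The 1 h counts rested on single libraries: 1 member was higher in rdd without replicate 1 at 1 h, and in WT 0 were lower without replicate 1 at 0 h and 1 without replicate 3 at 0 h.

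In leaves, the 5 leaf-expressed members stood far higher 24 h after flg22 than after water, and AT4G12490, not AZI1, had the highest mean. AT4G12490 stood at 2612, 3004 and 3275 FPKM in rdd leaves with flg22, against 52.6, 16.3 and 50.6 FPKM in rdd leaves with water. In WT leaves it stood at 4354, 2623 and 3149.7 FPKM with flg22, against 55.8, 146 and 48.0 FPKM with water. The lowest library with flg22 was far above the highest with water in both genotypes. The log2 differences were 6.35 ± 0.50 in rdd and 5.48 ± 0.50 in WT, and in WT the mean with flg22 was 40.5 times that with water. In seedlings at 3 h of flg22 the same gene averaged 29.9 ± 19.8 FPKM in rdd and 29.6 ± 13.1 FPKM in WT (SD, n = 3 each).

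AZI1 in leaves stood at 1927, 2163 and 1634 FPKM with flg22 against 235, 218 and 63.3 FPKM with water in rdd, and at 1793, 1870.3 and 1293 FPKM with flg22 against 159, 288 and 44.6 FPKM with water in WT. AT4G12500 averaged 209 ± 42.9 FPKM with flg22 and 1.85 ± 0.91 FPKM with water in rdd, and 229 ± 85.1 FPKM with flg22 and 6.82 ± 5.72 FPKM with water in WT (SD, n = 3 each). Its tandem neighbour AT4G12490 was 10.8 to 43.6 times as high in every leaf library, with a median ratio of 15.8, whereas in seedlings the median ratio was 0.788. AT4G22470 differed by 5.10 ± 0.52 log2 units in rdd leaves and by 2.77 ± 0.52 in WT leaves, there the smallest difference of the 5. All 5 were at least 2-fold higher with flg22 and 0 were lower, in rdd (7.88% and 5.08% of all 18164 genes tested) and in WT (9.68% and 8.29%). The 5 seedling-only members did not pass the filter on low values in leaves. Without replicate 3 of the 4 leaf groups the differences were 3.17 to 6.52 log2 units in rdd and 2.39 to 5.21 in WT.

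**Figure D3:**
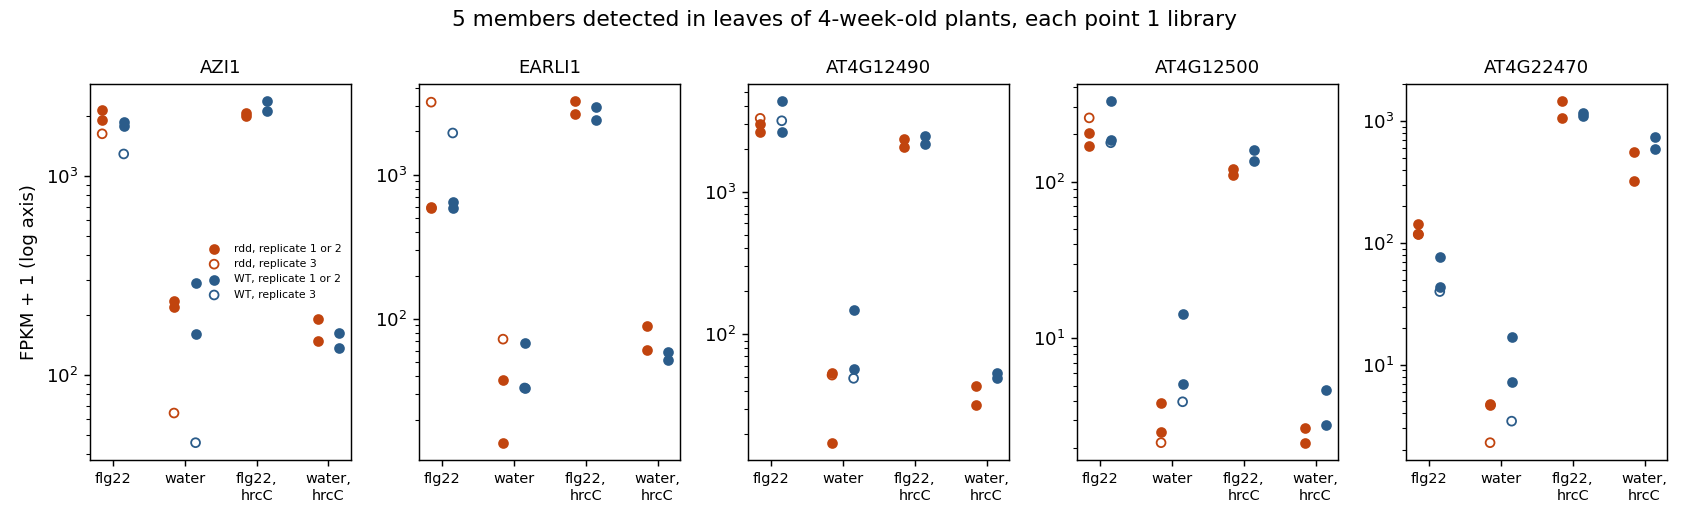
FPKM of the 5 leaf-expressed members in every leaf library, on log axes, with flg22 left of water and rdd left of WT, first without and then with hrcC; open points are replicate 3 of the sets without hrcC. Within each set, without or with hrcC, libraries with flg22 are above those with water for each gene, and AT4G22470 is high in all 8 libraries with hrcC.

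EARLI1 was split by replicate in leaves. With flg22 it stood at 596, 592 and 3191 FPKM in rdd and at 590.3, 651 and 1949 FPKM in WT, so replicate 3 was several times the other 2 in both genotypes. AZI1 in those replicates was the lowest of its group. The ratio of AZI1 to EARLI1 was 2.87 to 3.66 in replicates 1 and 2 with flg22 and 0.512 to 0.663 in replicate 3. In flg22 leaves given hrcC, with EARLI1 at 2385 to 3265 FPKM, the ratio was 0.633 to 0.892. With water it was 4.32 to 17.0 in replicates 1 and 2, 0.888 to 1.39 in replicate 3 and 2.14 to 3.19 after hrcC. Organelle genes took 3.03% to 5.54% of FPKM in replicates 1 and 2 without hrcC, 0.0734% to 0.0979% in replicate 3 and 0.0818% to 0.117% with hrcC, and their part in the ratio was not tested. EARLI1 was 4.96 ± 0.80 log2 units higher with flg22 in rdd and 4.44 ± 0.80 in WT, and 4.70 and 3.72 without replicate 3.

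**Figure D4:**
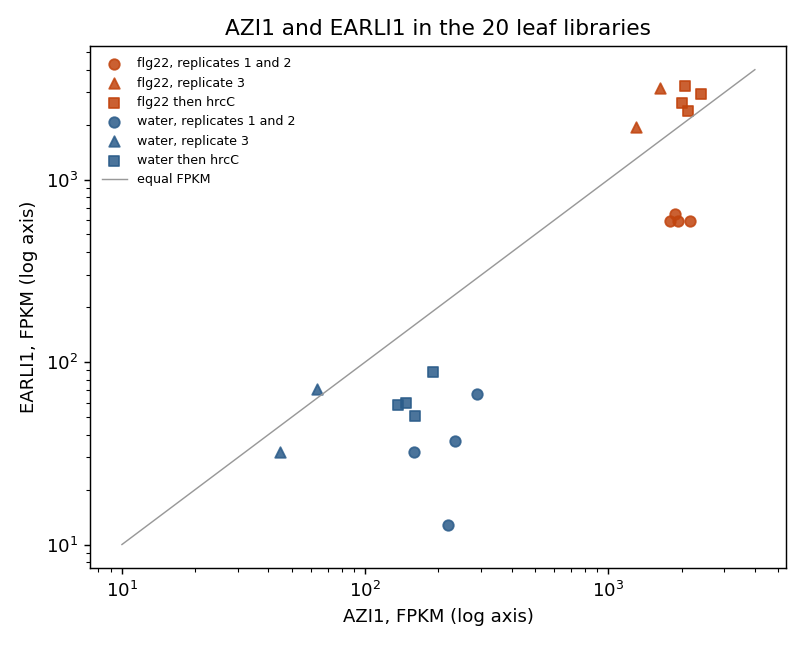
AZI1 against EARLI1 in the 20 leaf libraries, FPKM on log axes; symbols give treatment, hrcC and replicate. In flg22 leaves, replicates 1 and 2 without hrcC have EARLI1 at 590.3 to 651 FPKM, while replicate 3 and the hrcC libraries have 1949 to 3265 FPKM.

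In leaves that received hrcC for 1 h, the 5 leaf-expressed members again stood higher with flg22 than with water; how these differences compare with those without hrcC was not tested. AZI1 was 3.61 ± 0.15 log2 units higher with flg22 in rdd and 3.92 ± 0.15 in WT. For EARLI1 the differences were 5.31 ± 0.21 in rdd and 5.59 ± 0.21 in WT, for AT4G12490 5.89 ± 0.16 in rdd and 5.48 ± 0.16 in WT, and for AT4G12500 5.59 ± 0.24 in rdd and 5.34 ± 0.24 in WT. AT4G22470 stood at 1470 and 1052 FPKM with flg22 and 320.5 and 553 FPKM with water in rdd, and at 1161 and 1109 FPKM with flg22 and 594 and 736 FPKM with water in WT. Its libraries with flg22 were all above those with water, as for 38.7% of all genes in rdd and 37.2% in WT. The log2 differences were 1.56 ± 0.27 in rdd and 0.78 ± 0.27 in WT. At least 2-fold higher were 5 members in rdd (5.79% of all 17780 genes tested) and 4 in WT (6.12%), and 0 were lower (6.43% and 8.3%).

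Set beside leaves without hrcC, AT4G22470 was the member with the widest gap. After water its mean with hrcC was 152 times that without hrcC in rdd (437 against 2.88 FPKM) and 81.3 times in WT (665 against 8.18 FPKM). The WT ratio was 153 without replicate 2 of the water leaves without hrcC, and with 1 library left out the ratios were 111 to 192 in rdd and 60.2 to 153 in WT. After flg22 it was 10.0 times in rdd and 21.7 times in WT. No library of AT4G22470 with hrcC overlapped one without, and no share of all genes was taken for such gaps. The gap was not particular to this gene. After water, FRK1, a marker gene of the flg22 response, averaged 375 FPKM with hrcC and 3.20 FPKM without in rdd. In WT it averaged 245 and 2.07 FPKM. EARLI1 after flg22 was 2.02 times as high with hrcC in rdd, where libraries overlapped, and 2.51 times in WT. Replicate 3 of the leaves without hrcC lowered both ratios: without it they were 4.96 in rdd and 4.30 in WT, with no overlap in either genotype. In WT there was no overlap with it either. AZI1, AT4G12490 and AT4G12500 had ratios of 0.404 to 1.37, and of 0.264 to 1.47 with 1 library left out. After water, libraries with and without hrcC overlapped for each of them. After flg22 the ratios were 0.744 in rdd and 0.682 in WT for AT4G12490, and 0.550 and 0.639 for AT4G12500, all without overlap. For AZI1 after flg22 they were 1.07 in rdd, with overlap, and 1.37 in WT, without. The set, the hour and hrcC cannot be told apart in these ratios, which were not tested. Over all 14 groups, the order of AT4G22470 led with flg22 and hrcC leaves of rdd and WT, which overlapped, then water and hrcC leaves and seedlings at 3 h, each overlapping the next, and ended with water leaves of rdd.

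Between genotypes, the clearest difference was in seedlings at 3 h of flg22, where 3 seedling-only members were higher in rdd. AT4G12520 averaged 74.6 ± 23.4 FPKM in rdd and 23.9 ± 4.75 FPKM in WT (SD, n = 3 each). The log2 difference was 1.58 ± 0.23 (limma, adjusted p = 0.00213), and rdd was higher in 3 of 3 libraries with no overlap. AT5G46890, at 38.9, 29.0 and 25.2 FPKM in rdd and 6.64, 9.18 and 8.10 FPKM in WT, differed by 1.82 ± 0.31 (limma, adjusted p = 0.00755), also without overlap. AT5G46900 averaged 17.2 ± 4.32 FPKM in rdd and 2.70 ± 0.63 FPKM in WT, a difference of 2.28 ± 0.28 (limma, adjusted p = 0.000318) and the largest of the 10. The count of 3 called higher and 0 lower compares with 0.402% and 0.551% of all 18886 genes (0.953% in either direction), and all rdd libraries above all WT libraries, seen for these 3, was seen for 7.43% of all genes. The median difference of all genes at 3 h was -0.137, below 0, while these 3 were above it. The members had been picked for their flg22 responses, which use the same WT and rdd libraries at 3 h, so a low WT level at 3 h counts both in the choice and in this difference.

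The 3 calls held in each of the 6 fits that left out 1 of the compared libraries. Without replicate 2 of rdd at 3 h, the library that stood apart, the differences were 1.64 ± 0.26 for AT4G12520, 1.86 ± 0.35 for AT5G46890 and 2.50 ± 0.29 for AT5G46900 (limma, adjusted p = 0.00629, 0.0257 and 0.000352). With only the 6 compared libraries in the fit, AT4G12520 was not called (adjusted p = 0.0677). Over all alternatives the adjusted p ranged from 0.000734 to 0.0677 for AT4G12520, 0.00698 to 0.049 for AT5G46890 and 0.000107 to 0.0149 for AT5G46900. AT4G12510, the neighbour of AT4G12520, averaged 9.94 ± 3.79 FPKM in rdd and 4.47 ± 1.75 FPKM in WT and did not pass (0.98 ± 0.33, adjusted p = 0.138). AIR1 did not pass either, at 56.6 ± 18.01 FPKM in rdd and 52.8 ± 10.1 FPKM in WT (0.07 ± 0.25, adjusted p = 0.894). None of the 5 leaf-expressed members was called at 3 h, the lowest adjusted p being 0.201 for AT4G12500 (-1.24 ± 0.53). Replicate 3 of rdd at 3 h decided 2 of these: without it AT4G12510 (1.31 ± 0.33, adjusted p = 0.0278) was called higher and AT4G12500 (-1.81 ± 0.51, adjusted p = 0.0418) lower.

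At 1 h the 3 members called at 3 h leaned the same way without passing the test, and AIR1 leaned that way too. At 1 h, AT5G46900 averaged 39.7 ± 4.58 FPKM in rdd and 15.7 ± 2.69 FPKM in WT (1.29 ± 0.28, adjusted p = 0.0722). AIR1 averaged 103 ± 20.2 FPKM in rdd and 53.9 ± 5.67 FPKM in WT at 1 h (0.91 ± 0.25, adjusted p = 0.223). With AT4G12520 (0.75 ± 0.23, adjusted p = 0.306) and AT5G46890 (0.94 ± 0.31, adjusted p = 0.338), 4 members had every rdd library above every WT library at 1 h, as had 14.4% of all genes. With limma 0 members were called at 1 h (0.286% of all genes) and 4 had an unadjusted p under 0.05, as had 9.28% of all genes. When the fit held only the compared groups, AT5G46900 was called (adjusted p = 0.0111). At 0 h limma called 0 members (0.323% of all genes), 1 had an unadjusted p under 0.05 (6.58% of all genes), and libraries of both genotypes overlapped for all 10.

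The flg22 response itself was compared between genotypes as an interaction, and 0 members were called at 1 h, where 2 of 18886 genes were (0.0106%), or at 3 h (0.00529%). At 3 h 3 members had an unadjusted p under 0.05, as had 8.82% of all genes: AT4G12520 (1.21 ± 0.33), AT5G46890 (1.26 ± 0.44) and AT5G46900 (1.60 ± 0.39), each with an adjusted p of 0.558 (limma). At 1 h 0 members did (2.47% of all genes). This contrast, here and in leaves, uses the flg22 responses on which the members were picked, so its p-values serve as description only. The higher level in rdd at 3 h is not shown to be a difference in response.

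**Figure D5:**
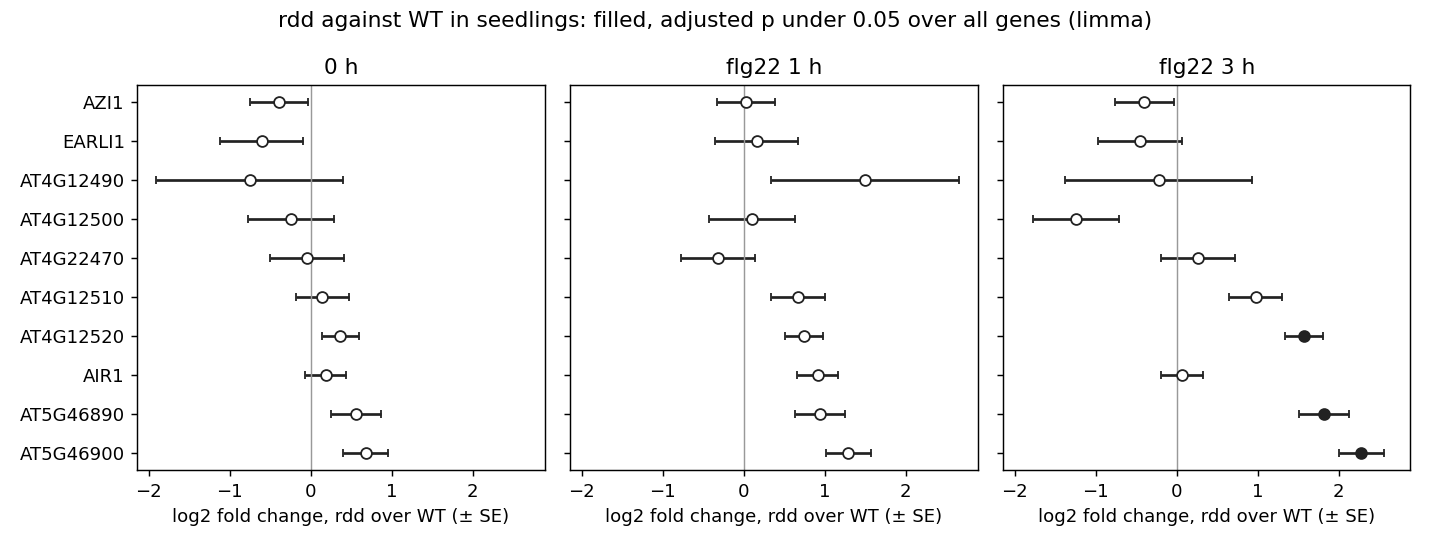
Difference between rdd and WT seedlings in log2(FPKM + 1) for the 10 genes at 0, 1 and 3 h of flg22; bars are ± SE of the fit and filled points have an adjusted p under 0.05. Filled points are AT4G12520, AT5G46890 and AT5G46900 at 3 h, at 1.58, 1.82 and 2.28.

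The summed level of root markers also differed at 3 h. Their sum was 1146 to 1341 FPKM in rdd and 831 to 975 FPKM in WT at 3 h, 1.37 times as high on average and with no overlap. Of the 12, 1 was called higher (0 to 3 over the alternatives, with 0 in 6 of 13, among them without any 1 of the WT libraries or replicate 1 or 2 of rdd; 0.402% of all genes), and the median difference was 0.50. PYK10, a beta-glucosidase gene, made up 73.8% to 78.1% of the sum in rdd and 71.7% to 80.4% in WT at 3 h. Without it the sum was 251 to 352 FPKM in rdd and 191 to 235 FPKM in WT. PYK10 itself was lower at 3 h than at 0 h in rdd (-0.59 ± 0.17, adjusted p = 0.0214, limma) and in WT (-0.88 ± 0.17, adjusted p = 0.00101). At 1 h the sum was 1376 to 2073 FPKM in rdd and 1226 to 1410 FPKM in WT, and at 0 h 1655 to 1995 FPKM in rdd and 1386 to 1841 FPKM in WT, with overlap at both times. Within each genotype the sum at 3 h was 0.709 times that at 0 h in rdd and 0.569 times in WT. Per 1000 FPKM of root markers, a scale chosen after seeing the data, AT4G12520 stood at 49.1 to 77.3 in rdd and 23.4 to 29.7 in WT at 3 h, AT5G46890 at 21.6 to 29.7 in rdd and 7.99 to 9.42 in WT, and AT5G46900 at 9.08 to 16.9 in rdd and 2.37 to 3.15 in WT. Genotypes overlapped on that scale for AT4G12510 and AIR1. On a scale without PYK10, AT4G12520, AT5G46890 and AT5G46900 were also higher in every rdd library than in every WT library at 3 h. The part of root tissue in the difference was not tested.

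In leaves without hrcC no member was called between genotypes. With flg22, AT4G22470 stood at 117, 143 and 117 FPKM in rdd and 75.9, 42.4 and 38.9 FPKM in WT, so that every rdd library was higher, as for 4.7% of all genes. The difference was 1.30 ± 0.52 (adjusted p = 1, limma), and 1.17 without replicate 3 of the leaf groups (adjusted p = 0.438). With water the same gene leaned the other way, at 2.88 ± 1.38 FPKM in rdd and 8.18 ± 6.90 FPKM in WT (-1.02 ± 0.52, adjusted p = 1). Its response to flg22 differed by 2.33 ± 0.73 between rdd and WT leaves, with an unadjusted p of 0.00998 and an adjusted p of 1. AT4G12500 with water was lower in 3 of 3 rdd libraries, as were 3.02% of all genes, at 2.88, 1.51 and 1.16 FPKM in rdd and 4.13, 13.4 and 2.94 FPKM in WT (-1.26 ± 0.46, adjusted p = 1). Counts by limma were 0 called with flg22 (0.171% of all genes), 0 with water (0.0881%) and 0 for the interaction (0%), with 1 member in each at an unadjusted p under 0.05 (3.86%, 1.93% and 1.41% of all genes).

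After hrcC, 0 members were called between genotypes with flg22 (2.08% of all genes) or with water (0.945%) by limma, and at an unadjusted p under 0.05 there were 0 with flg22 (16.3% of all genes) and 3 with water (12.4%). Those 3, all lower in rdd after water and hrcC, were AT4G12490 (-0.47 ± 0.16, adjusted p = 0.286), AT4G12500 (-0.59 ± 0.24, adjusted p = 0.378) and AT4G22470 (-0.65 ± 0.27, adjusted p = 0.391). The interaction also gave 0 calls (0.0956% of all genes) and 0 members at an unadjusted p under 0.05 (11.6%).

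Single libraries stood apart for several members at once, and what set them apart was not tested. No share of all genes was taken for these positions. Replicate 2 of rdd at 0 h was the highest of its group for all 5 leaf-expressed members, and FRK1, a receptor kinase gene used as a marker of the flg22 response, stood at 2.97 FPKM there and 0.05 and 0.10 FPKM in replicates 1 and 3. Replicate 1 of WT at 1 h was likewise the highest for all 5, with FRK1 at 18.3 FPKM against 4.52 and 5.06 FPKM. Replicate 1 of rdd at 3 h was the lowest for all 5 and the highest for 4 of the 5 seedling-only members, with FRK1 at 51.4 FPKM against 55.3 and 93.2 FPKM. Replicate 2 of WT at 3 h was the highest for all 10. Replicate 2 of WT at 0 h was the highest for 4 leaf-expressed members and the lowest for all 5 seedling-only members. In WT leaves with water, replicate 2 was the highest for all 5 leaf-expressed members, with FRK1 at 1.70 FPKM against 3.02 and 1.49 FPKM. With hrcC, replicate 1 of rdd with flg22 was the highest for all 5, with FRK1 at 1147 against 1195 FPKM. There replicate 2 of rdd with water was also the highest for all 5, with FRK1 at 388 against 363 FPKM.

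Members that lie side by side were mostly of the same set, leaf-expressed or seedling-only. On chromosome 4, AZI1, EARLI1, AT4G12490, AT4G12500, AT4G12510 and AT4G12520 follow one another, and the change from leaf-expressed to seedling-only falls between AT4G12500 and AT4G12510. AT4G12530, AT4G12540 and AIR1B (AT4G12545) come next and then AIR1. AIR1B averaged 68.3 to 137 FPKM in the 6 seedling groups and at most 1.77 FPKM in the 8 leaf groups, a division like that of AIR1. AT4G22460, beside AT4G22470 on chromosome 4, stood at 57.8, 37.2 and 16.2 FPKM at 0, 1 and 3 h in rdd and 26.4, 13.3 and 7.59 FPKM in WT, opposite in direction to its neighbour over those times. AT5G46890 and AT5G46900 are neighbours on chromosome 5.

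Reads of near-identical copies may have been divided between neighbours, so sums were also taken. The sum of AT4G12510 and AT4G12520 at 3 h was 84.6 ± 26.2 FPKM in rdd and 28.4 ± 6.46 FPKM in WT (SD, n = 3 each), 1.52 log2 units apart with no overlap. For AT5G46890 and AT5G46900 the sum was 48.2 ± 9.40 FPKM in rdd and 10.7 ± 1.87 FPKM in WT, 2.07 log2 units apart with no overlap. The ratio of AT5G46890 to AT5G46900 was 0.928 to 1.30 at 0 h and 1.30 to 3.37 at 3 h over both genotypes, so the pair did not move in step. That of AT4G12520 to AT4G12510 had a median of 5.35 over the 18 seedling libraries. EARLI1, AT4G12490, AIR1 and AT4G22470 each overlap another gene of the RefSeq annotation that has no row in the table, and their levels are uncertain to that extent.

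Genes known to act with AZI1 in systemic signalling were counted next. Of 12 genes of azelaic acid and glycerol-3-phosphate signalling, 2 rose at 3 h in rdd seedlings and 3 in WT (limma, adjusted p under 0.05; 8.04% and 12.1% of all genes rose). GLI1, the glycerol kinase gene, rose by 1.17 ± 0.20 in rdd and 1.79 ± 0.20 in WT, and FAD7, a chloroplast fatty acid desaturase gene, by 0.93 ± 0.22 and 0.89 ± 0.22 (adjusted p = 0.00719 and 0.00712); the kinase gene MPK6 rose in WT by 0.35 ± 0.09. The list's median difference was -0.07 in rdd and 0.15 in WT, and that of all genes -0.142 in rdd and 0.0769 in WT. In leaves with flg22, 2 rose in rdd and 2 in WT (12.8% and 14.8% of all genes), namely PDLP5, a plasmodesmata protein gene, and GLI1, and 0 fell in rdd (3.72%) and 1 in WT (8.3%), MGD1, a galactolipid synthase gene (-1.19 ± 0.32). The replicate block gives each replicate number its own term. With it 6 rose and 3 fell in rdd (30.4% and 10.9% of all genes) and 7 rose and 3 fell in WT (29.6% and 17.9%). Without replicate 3 of the 4 leaf groups 6 rose in each genotype (32.3% of all genes in rdd and 31.5% in WT). MGD1 was no longer called without replicate 2 or 3 of WT water leaves or replicate 1 or 2 of WT flg22 leaves. PDLP5 reached 17.9 ± 1.46 FPKM against 5.33 ± 1.09 FPKM with water in rdd and 25.1 ± 6.79 FPKM against 4.73 ± 1.53 FPKM with water in WT. In leaves with hrcC, 3 of 11 tested rose in rdd and 4 in WT after flg22 (22% and 22.4% of all genes), led by the lectin-like gene LLP1 at 2.41 ± 0.12 in rdd and 3.10 ± 0.12 in WT, and 1 fell in each (18.6% and 23% of all genes). DIR1, which encodes a lipid transfer protein that acts with AZI1 in systemic resistance, was higher in rdd than in WT after hrcC, at 38.6 ± 0.55 and 21.6 ± 2.96 FPKM with flg22 (0.81 ± 0.11, adjusted p = 0.015) and at 37.5 ± 2.08 and 21.3 ± 1.16 FPKM with water (0.78 ± 0.11, adjusted p = 0.0237, limma, n = 2 each). Of all genes 1.46% were called higher with flg22 and 0.641% with water. LLP1 was the 1 gene of the list called lower with flg22, at 179 ± 25.9 FPKM in rdd and 274 ± 13.9 FPKM in WT (-0.62 ± 0.12, adjusted p at the threshold; 0.624% of all genes), and was lost in 9 of 11 alternatives. With water the DIR1 call was lost in each of the 4 fits that left out 1 library, and with flg22 without replicate 1 of WT or either replicate of rdd.

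Of 10 tested genes of auxin-induced lateral root growth, AIR12, a membrane cytochrome gene, rose in seedlings at both times. Of all genes 10.2% rose at 1 h in rdd and 9.62% in WT. At 1 h it reached 703 ± 35.2 FPKM in rdd, against 76.6 ± 9.40 FPKM at 0 h, and 793 ± 178 FPKM in WT, against 88.6 ± 7.69 FPKM at 0 h (3.19 ± 0.14 and 3.13 ± 0.14). At 3 h the differences were 2.31 ± 0.14 in rdd and 2.07 ± 0.14 in WT, and in WT the expansin gene EXPA14 (-1.43 ± 0.31) was among 2 that fell and AIR3, a subtilisin-like protease gene, rose (0.62 ± 0.20), where 12.1% of all genes rose and 6.81% fell. IAA14, a repressor gene of auxin signalling, fell at 1 h in rdd (-0.78 ± 0.24, adjusted p = 0.0355, limma), a call lost with the replicate block and without replicate 2 or 3 at 0 h or replicate 1 or 3 at 1 h. Among 9 tested genes that the annotation names lipid transfer proteins, LTP5 and LP1 fell at 1 h in rdd (-0.90 ± 0.19 and -0.58 ± 0.14) and in WT (-1.02 ± 0.19 and -0.57 ± 0.14), where 6.58% and 7.64% of all genes fell. At 3 h 0 of the 9 were called in rdd (8.04% of all genes rose and 8.03% fell), and in WT LTP2 rose (0.44 ± 0.12) while LTP (-0.49 ± 0.15) and LP1 (-0.40 ± 0.14) fell, beside the shares of all genes given for the auxin list. Over the alternatives these WT counts at 3 h were 0 to 3 higher and 0 to 2 lower, with 0 in both directions without replicate 1 or 2 at 0 h. For the auxin list in WT at 3 h they were 1 to 2 in each direction. Neither list had a called difference between genotypes in seedlings. Of 6 green tissue markers, 6 fell with flg22 before hrcC in rdd (18.6% of all genes) and in WT leaves (23%), by a median of -1.35 in rdd and -1.21 in WT. In leaves without hrcC 0 fell in rdd (3.72% of all genes) and 1 in WT (8.3%), with medians of -0.96 in rdd and -0.98 in WT. With the replicate block 4 fell in rdd (10.9% of all genes) and 5 in WT (17.9%). In seedlings at 3 h 1 fell in rdd (8.03% of all genes) and 3 in WT (6.81%). Over the alternatives these seedling counts were 0 to 2 in rdd and 0 to 5 in WT. The markers' part in the members' flg22 differences was not tested, and 0 of the 6 were called between genotypes in any set.

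The genes whose group means ran most like each member were looked up among 16533 genes, with r over 14 group means as a description only. EARLI1 ran most like ACO3, an aconitase gene (r = 0.982), AT4G12490 like LTA3, a gene for a pyruvate dehydrogenase subunit (r = 0.977), and AT4G12500 like ADF3, an actin depolymerizing factor gene (r = 0.969). AT4G22470 ran most like GSTF7, a glutathione transferase gene (r = 0.974). AZI1 had the weakest likeness, at 0.935 with AT1G75200. Seedling-only members had r of 0.999 with their closest genes, EXT11, an extensin gene, for AT4G12520 and LRX1, a cell wall protein gene of root hairs, for AT5G46890. Those points share levels near 0 in all 8 leaf groups, which sets much of r. Among the members, r was 0.948 for EARLI1 and AT4G12500, 0.873 for AZI1 and EARLI1 and 0.998 for AT4G12520 and AT5G46890. For the neighbours AT4G12510 and AT4G12520 it was 0.994. It was 0.561 for AZI1 and AT4G12490, and 5223 genes outside the members ran more like AT4G12490 than AZI1 did.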

How the data were processed

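RNA was measured by sequencing in 38 libraries of 14 groups, and the 32 bisulfite libraries of the series were not used here. The authors processed reads with HISAT2, featureCounts and DESeq2 on TAIR10, per the submitters' processing notes, without versions. The deposited values come without a unit and are taken here to be FPKM computed by the authors, inferred from decimals, length scaling and library totals. FPKM hold no read counts, so depth is unknown and no count test was run. The table of the series and the files of single libraries agreed (largest difference 0 FPKM), and 8158 of 33597 genes were at 0 throughout. Of these identifiers 32830 matched a RefSeq locus tag.

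The scale of analysis was log2(FPKM + 1), for genes that reached 1 FPKM in 3 or more libraries of a set (2 or more with hrcC). Each of the 3 sets (seedlings, leaves, leaves with hrcC) was fitted as a whole with limma 3.58.1 in R 4.3.3 (eBayes with trend and robust variances, statmod 1.5.0), and each group had its own mean. Two-sided p-values were adjusted by Benjamini-Hochberg over all genes tested, and called means an adjusted p under 0.05. The fit was tested on simulated data. Tables and plots used Python 3.11.15, pandas 2.3.3, numpy 2.4.6 and matplotlib 3.10.9.

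The members, the gene lists and the tests were chosen with earlier results of these data known. All 10 members are named. From each list up to 3 called genes with the smallest adjusted p per comparison could be named, and likeness used the closest genes by Pearson r with a group mean of at least 5 FPKM; AIR1B and AT4G22460 were named as neighbours after their values were seen. 1 called root marker is not reported here by name. A further rule, on protein likeness, was not applied because no protein sequences were used here. The series text states 3 repeats for RNA, and the hrcC set has 2 libraries per group.

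Replicate numbers were checked for pairing on deviations from group means. In leaves without hrcC all 18 pairs of libraries with the same number had a correlation over 0.1 (lowest 0.313, median 0.66). However, 6 of the 12 libraries were closest to a library of their own number. Replicate 3 stood apart in all 4 leaf groups, which by itself can make such correlations positive. The correlations thus set replicate 3 apart from the other replicates, and pairing by number among those others is not shown. In seedlings 10 of 45 pairs and with hrcC 4 of 12 had a correlation over 0.1, so there libraries share a number only. Alternatives were a pseudocount of 0.1 FPKM, no filter on low values, median-ratio scaling, totals without organelle genes, plain variances, only the compared groups, a replicate block and leaving out each library. Leaving out replicate 3 of all 4 leaf groups, scaling members to root markers with or without PYK10, and leaving out libraries from the ratios with hrcC were chosen after seeing the data.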

Additional observations from a re-analysis of the deposited data

How the results depend on the processing

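For 27 counts of members (2-fold or called, per comparison and direction), every alternative gave the reported count or one within 1.5 times of it, except as follows. In WT seedlings at 1 h, members at least 2-fold lower were 3 as reported, 1 with median-ratio scaling, and 0 to 3 with 1 library left out. In rdd seedlings at 1 h, members at least 2-fold higher were 3, and 1 to 3 with 1 library left out. Members called between genotypes at 3 h were 3, with 3 to 5 when 1 library was left out, and 2 with only the compared groups. With only the compared groups 1 member (AT5G46900) was called at 1 h, and 0 as reported. With no filter on low values 1 was called in leaves with flg22 and hrcC, AIR1 (-0.42 ± 0.05, adjusted p = 0.0282), which is listed at 0 in both rdd libraries; 0 were called as reported. The cause was not tested. Among single members and lists, 3626 values stayed on the same side of the threshold or within the spread, 234 moved, and for single members 3 calls were gained and 1 was lost (all at 1 or 3 h between genotypes). No direction of a called difference was reversed. With the replicate block, of these 27 counts 0 moved and 0 calls of members changed, while in the other gene lists some counts in leaves without hrcC rose; the leaf difference in AT4G22470 with flg22 had an adjusted p of 0.318 with the block and 1 without it. Leaving out 1 library in the hrcC set leaves a group of 1, assumed to vary like the others. Without read counts, no limit can be set on levels listed at 0.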
